A study of Rattus norvegicus with 9 samples.

Results

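The unfolded protein response and the integrated stress response were followed through 10 genes in primary rat cortical neurons under electrical stimulation. These were Eif2ak3, Ern1, Atf6, Atf4, Xbp1, Ddit3, Trib3, Chac1, Asns and Herpud1, taken by symbol from the deposited expression table, where each has 1 entry. All 10 passed the filter on low counts, among 16284 genes tested out of 32623 entries. Wild-type cortical neurons from Wistar rat embryos were cultured on conductive indium tin oxide glass and received alternating current (ACS, 3 libraries), direct current (DCS, 3 libraries, abbreviated DES in the titles) or no current (control, 3 libraries). The labels give 3 µA for 20 min over 7 days for both currents and place the neurons at day 7 in vitro, although the growth protocol describes culture until 14 days in vitro. They also give 20 Hz for both, although the paper states a frequency for ACS alone. Whether the 3 libraries per condition came from independent cultures is not stated. All p-values therefore rest on the spread between the libraries, which may be technical.

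When unfolded proteins collect in the endoplasmic reticulum (ER), 3 sensors in its membrane respond. PERK, the kinase encoded by Eif2ak3, phosphorylates the initiation factor eIF2, which lowers general translation but favours translation of Atf4. IRE1, encoded by Ern1, splices Xbp1 mRNA so that it codes for an active transcription factor, and ATF6 moves to the Golgi, where proteases release its transcription factor domain. The kinases encoded by Eif2ak1, Eif2ak2 and Eif2ak4 reach Atf4 from other stresses, and this shared arm is the integrated stress response. Much of this control acts on proteins, translation and splicing, which the level of an mRNA does not measure. Neurons use the pathway during development, in synaptic plasticity and in injury.

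Target genes of the pathway carry short promoter elements, so the promoters are shown with the elements in capitals. RefSeq windows of 250 bases before to 50 bases after the start (build GRCr8) were matched for 8 of the 10 genes. Atf6 and Ern1 were without one. The search covered 4 motifs and both strands. The core of the C/EBP-ATF element, bound by ATF4 with its partners, is TGATGNAA. It was in 3.98% of all 33469 windows and in 3 of the 8. The ER stress element consists of CCAAT and CCACG with 9 bases between them. It was in 0.0657% of all windows and, among the 8, in Xbp1. ER stress element II consists of ATTGG and CCACG with 1 base between them. It was in 0.0508% of all windows and, among the 8, in Herpud1. The UPR element TGACGTGG was in 0.595% of all windows and in 0 of the 8. Stretches before the start are printed below on the strand of the gene, with Hspa5, the main ER chaperone, for comparison.
Chac1, chr3:126795934-126796001, plus strand: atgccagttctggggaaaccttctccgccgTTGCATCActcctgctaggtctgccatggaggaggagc
Herpud1, chr19:10614791-10614921, minus strand: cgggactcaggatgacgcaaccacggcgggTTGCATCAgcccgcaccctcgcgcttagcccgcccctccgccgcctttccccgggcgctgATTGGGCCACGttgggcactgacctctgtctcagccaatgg
Trib3, chr3:161275534-161275584, minus strand: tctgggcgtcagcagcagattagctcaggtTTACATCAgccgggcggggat
Xbp1, chr14:84604528-84604606, plus strand: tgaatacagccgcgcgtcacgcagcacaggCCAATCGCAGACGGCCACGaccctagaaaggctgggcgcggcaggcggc
Hspa5, chr3:38452943-38453015, plus strand: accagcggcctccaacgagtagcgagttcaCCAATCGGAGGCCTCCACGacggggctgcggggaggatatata

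The capitals in Chac1 and Herpud1 are the same 8 bases, the C/EBP-ATF core read on the other strand, and those in Trib3 differ from them only at the position that the motif leaves free. Herpud1 carries this core at base -184 and ER stress element II at base -124 before the start. The long capitals in Xbp1 and Hspa5 are the ER stress element. No motif overlapped another in these windows. A match is a description of the letters and was not tested for binding.

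The 10 genes spanned a wide range of levels. Expression in FPKM (fragments scaled by exon length and library size), which takes gene length into account, ran from 94.7 to 114 for Atf4, the transcription factor at the centre of the integrated stress response. Xbp1 followed with 49.0 to 55.9 FPKM. Asns, which makes asparagine, had 22.0 to 26.7 FPKM, and Herpud1, a membrane protein that helps remove misfolded proteins from the ER, had 20.0 to 25.2 FPKM. These 2 ranges overlapped. Atf6 (9.72 to 11.2 FPKM), Eif2ak3 (8.79 to 9.95 FPKM) and Ddit3 (6.49 to 11.0 FPKM) could not be ordered either. Ddit3 encodes CHOP, a transcription factor tied to cell death under lasting ER stress. Chac1, an enzyme that degrades glutathione, had 4.62 to 6.40 FPKM and Ern1 had 2.68 to 3.54 FPKM. Trib3, a pseudokinase that CHOP and ATF4 induce and that inhibits ATF4, was lowest with 0.358 to 0.842 FPKM. By mean FPKM, Atf4 stood at percentile 95.9 and Trib3 at percentile 14.4 of the genes tested. Among the 10 genes, Ddit3 (331 to 723 estimated counts per library) and Trib3 varied most between libraries of a group. The coefficient of variation was 19.5% (ACS), 14.6% (DCS) and 15.2% (control) for Ddit3 and 39.6% (ACS), 34.1% (DCS) and 24.2% (control) for Trib3. Trib3 rested on 38 to 116 estimated counts per library, about 9.5 to 29 sequenced fragments if a fragment adds 4 to a count. The last 72 bases of Ddit3 (chromosome 7, 70580198 to 70585084, plus strand in the table) overlap the end of Mars1 on the opposite strand, which had a mean of 43.0 FPKM. The sources do not say whether strand was used in counting.

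**Figure D1:**
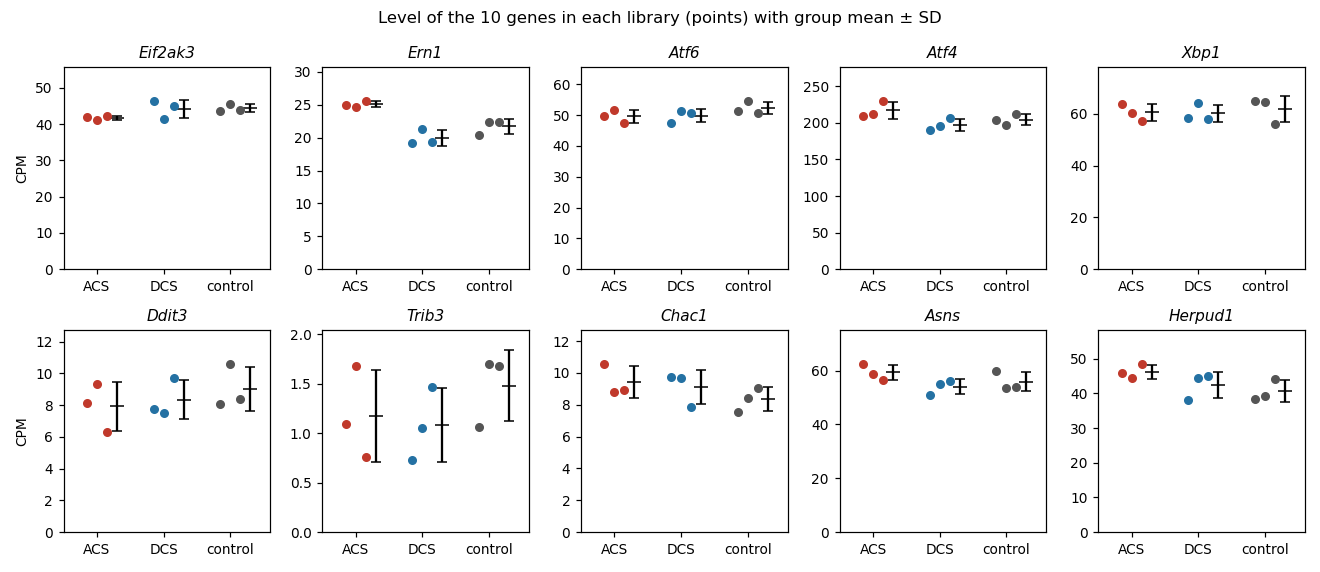
Level of each of the 10 genes in CPM (estimated counts scaled by library size, vertical axes from 0) in the 3 ACS, 3 DCS and 3 control libraries (points), with the group mean ± SD (black bars). The ACS libraries of Ern1 lie between 24.6 and 25.6 CPM, above all other libraries, while the groups of Xbp1, Ddit3, Trib3, Atf6 and Chac1 overlap.

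The first comparison asked what alternating current changed. None of the 10 genes passed the test between ACS and control neurons at an adjusted p under 0.05 (edgeR's quasi-likelihood test with Benjamini-Hochberg adjustment), against 4.16% of all genes. Ern1 and Herpud1 had an unadjusted p under 0.05, or 2 of 10 genes against 20.8% of all genes. DESeq2, which called 1652 genes in all against 678 with edgeR, called none of the 10 either. None met the thresholds that the study states, an unadjusted p under 0.05 with a fold change over 2, against 1.47% of all genes. The ACS and control libraries did not overlap for 3 of the 10 genes, Ern1 and Herpud1 being higher and Eif2ak3 lower, against 27.1% of all genes. These shares were near or below those of all genes. The log2 fold changes were above 0 for 5 genes and below 0 for 5, with a median of 0.028 (-0.0029 over all genes).

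Of the 3 sensors, Ern1 (chromosome 10, 94588555 to 94681914 on the minus strand, as in the table, which names no build) stood highest above control. Its level was 25.0, 24.6 and 25.6 CPM in ACS libraries 1 to 3, against 20.5, 22.4 and 22.4 CPM in the control libraries. Every ACS library was above every control library. The log2 fold change was 0.21 (standard error 0.072, adjusted p = 0.139 from edgeR). Eif2ak3 had 41.9, 41.1 and 42.2 CPM in ACS libraries, against 43.5, 45.6 and 43.9 CPM in control libraries. These groups did not overlap either, in the other direction (log2 fold change -0.087, adjusted p = 0.402, edgeR). Atf6 averaged 49.5 ± 2.07 CPM in ACS neurons and 52.2 ± 2.00 CPM in control neurons (SD, n = 3 each), with overlapping groups.

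The transcription factors had overlapping groups. Atf4 (chromosome 7, 121480723 to 121482772, plus strand in the table) averaged 217 ± 11.1 CPM in ACS neurons and 204 ± 7.32 CPM in control neurons (SD, n = 3 each), and its log2 fold change of 0.087 had a 95% interval from -0.026 to 0.20. Xbp1 averaged 60.5 ± 3.25 CPM in ACS neurons and 61.9 ± 5.01 CPM in control neurons (SD, n = 3 each), with an interval from -0.19 to 0.13. The table gives 1 transcript for Xbp1, so the spliced and unspliced forms were not told apart. Ddit3 averaged 7.92 ± 1.55 CPM in ACS neurons and 9.01 ± 1.37 CPM in control neurons (SD, n = 3 each), with an interval from -0.59 to 0.21. Each interval holds the differences that are compatible with the data, given the spread between the 3 libraries per group.

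The target genes included Herpud1 (chromosome 19, 11046909 to 11057254, minus strand in the table), which had 45.8, 44.3 and 48.4 CPM in ACS libraries, against 38.3, 39.4 and 44.2 CPM in control libraries. The lowest ACS library was just above the highest control library. Its log2 fold change was 0.19 (standard error 0.080, adjusted p = 0.223 from edgeR). Chac1, which shares the C/EBP-ATF core with Herpud1, averaged 9.43 ± 0.980 CPM in ACS neurons and 8.34 ± 0.754 CPM in control neurons (SD, n = 3 each). Asns averaged 59.3 ± 2.94 CPM in ACS neurons and 55.8 ± 3.53 CPM in control neurons (SD, n = 3 each). The groups overlapped for Chac1 and for Asns. Trib3, which also carries the C/EBP-ATF core, had the widest interval. Its log2 fold change was -0.33 (95% interval from -1.16 to 0.49), and it lay between -0.68 and -0.099 when 1 library was left out. The interval lay within a 2-fold change in either direction for the other 9 genes.

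**Figure D2:**
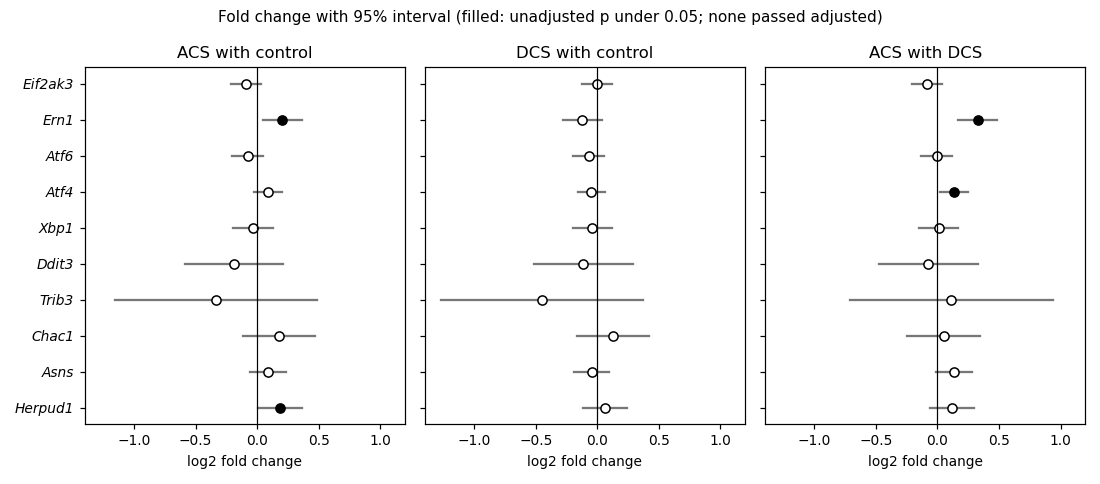
Log2 fold change (horizontal axes) of the 10 genes with its 95% interval (line) in each of the 3 comparisons, from edgeR, with filled points for an unadjusted p under 0.05. Ern1 and Herpud1 are filled between ACS and control, none between DCS and control, and Ern1 and Atf4 between ACS and DCS, while the line of Trib3 is the widest in each panel.

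The second comparison asked the same of direct current. No gene of the 10 passed the adjusted test between DCS and control neurons, against 0.0123% of all genes, and 0 of 10 had an unadjusted p under 0.05, against 7.09% of all genes. DESeq2, which called 38 genes in all against 2 with edgeR, also called 0. At the thresholds of the study the count was also 0, against 0.571% of all genes. All 10 genes had DCS and control libraries that overlapped, where 11.1% of all genes did not overlap. The log2 fold changes were below 0 for 8 of the 10 genes and had a median of -0.047 (0.0027 over all genes). Ern1 had 19.2, 21.4 and 19.3 CPM in DCS libraries, against 20.5, 22.4 and 22.4 CPM in control libraries. DCS library 2 lay between the control libraries and the other two DCS libraries below them (log2 fold change -0.12, adjusted p = 0.710, edgeR). Eif2ak3 averaged 44.2 ± 2.51 CPM in DCS neurons and 44.4 ± 1.10 CPM in control neurons (SD, n = 3 each), the smallest difference of the 10. The 95% intervals lay within a 2-fold change for 9 genes, the exception being Trib3 with -1.27 to 0.37. Both comparisons share the control libraries.

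Alternating and direct current were then compared with each other. None of the 10 genes passed the adjusted test, against 0.633% of all genes, while 2 of 10, Ern1 and Atf4, had an unadjusted p under 0.05, against 13.9% of all genes. None met the thresholds of the study, against 1.03% of all genes. The groups did not overlap for Ern1, Atf4 and Asns, each higher under ACS, or 3 of 10 genes against 21.4% of all genes. Ern1 had 25.0, 24.6 and 25.6 CPM under ACS, against 19.2, 21.4 and 19.3 CPM under DCS. The lowest ACS library thus stood well above the highest DCS library. Its log2 fold change was 0.33 (standard error 0.072, 95% interval from 0.17 to 0.49), with an adjusted p of 0.0791 from edgeR. The adjusted p was under 0.05 with DESeq2 (0.00792), which called 650 genes in this comparison against 103 with edgeR. Over 18 alternative settings it lay between 0.00792 and 0.231, and 1 of them gave a call. Atf4 had 209, 212 and 230 CPM under ACS, against 190, 196 and 206 CPM under DCS. The groups came close without overlapping (log2 fold change 0.13, adjusted p = 0.278, edgeR). Asns had 62.5, 58.9 and 56.6 CPM under ACS, against 50.8, 54.9 and 56.3 CPM under DCS. Here ACS library 3 and DCS library 3 nearly met (log2 fold change 0.14, adjusted p = 0.395, edgeR). The remaining 7 genes had overlapping groups. Log2 fold changes were above 0 for 7 of the 10 genes and below 0 for 3, with a median of 0.082 (-0.0021 over all genes).

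Some genes around these 10 passed the adjusted test between ACS and control, to be read against 4.16% of all genes. Among them were 2 chaperone genes of the ER that fell under ACS. The members of 8 pathway lists were counted beside the background, where 2.83% of all genes were higher and 1.33% lower between ACS and control at an adjusted p under 0.05. Between ACS and DCS, 0.51% of all genes were higher and 0.123% lower. Of 18 ER chaperones and folding enzymes, 2 fell between ACS and control and 0 rose, and 15 of the 18 had a log2 fold change below 0, with a median of -0.099. Hspa5, which encodes BiP, the chaperone that holds the 3 sensors inactive, had 471, 447 and 463 CPM in ACS libraries, against 589, 583 and 516 CPM in control libraries. All ACS libraries were below all control libraries. Hspa5 fell by 0.29 on the log2 scale (log2 fold change -0.29, standard error 0.054, adjusted p = 0.021 from edgeR). Its adjusted p was 0.0681, 0.0935 and 0.0571 without ACS library 1, 2 or 3 and 0.0864 and 0.0984 without control library 1 or 2. Under DCS, Hspa5 had 516, 537 and 502 CPM, between the other groups but overlapping the control libraries, at a log2 fold change of -0.12 against control (adjusted p = 0.695 from edgeR).

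Pdia4, a disulfide isomerase of the ER, was the chaperone gene with the smallest p. It had 98.8, 92.1 and 99.6 CPM in ACS libraries, 117, 115 and 124 CPM in DCS libraries and 125, 124 and 119 CPM in control libraries. The ACS libraries lay apart from all others. The log2 fold change was -0.34 between ACS and control (standard error 0.048, adjusted p = 0.00608 from edgeR), and this call passed whichever 1 library was left out (adjusted p up to 0.0378). Between ACS and DCS it was -0.29 (adjusted p = 0.0357 from edgeR), a call that was lost without any one of ACS libraries 1 to 3, DCS libraries 1 to 3 and control libraries 1 and 2 (adjusted p from 0.0595 to 0.144), and with the 6 libraries of that comparison alone (0.0577). Of the 15 chaperone genes with a RefSeq promoter window, 7 carried the ER stress element shown above for Hspa5, namely Calr, Canx, Creld2, Dnajc3, Ero1b, Hsp90b1 and Hspa5. Their log2 fold changes between ACS and control ran from -0.29 to 0.22, with 6 of 7 below 0 and a median of -0.15. Of all 18 chaperones and folding enzymes, with or without the element, 15 were below 0, with a median of -0.099. Among the 7, Hspa5 alone passed the test. For Pdia4 no match to the 4 motifs was found, and which 15 genes had a window is not listed here.

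**Figure D3:**
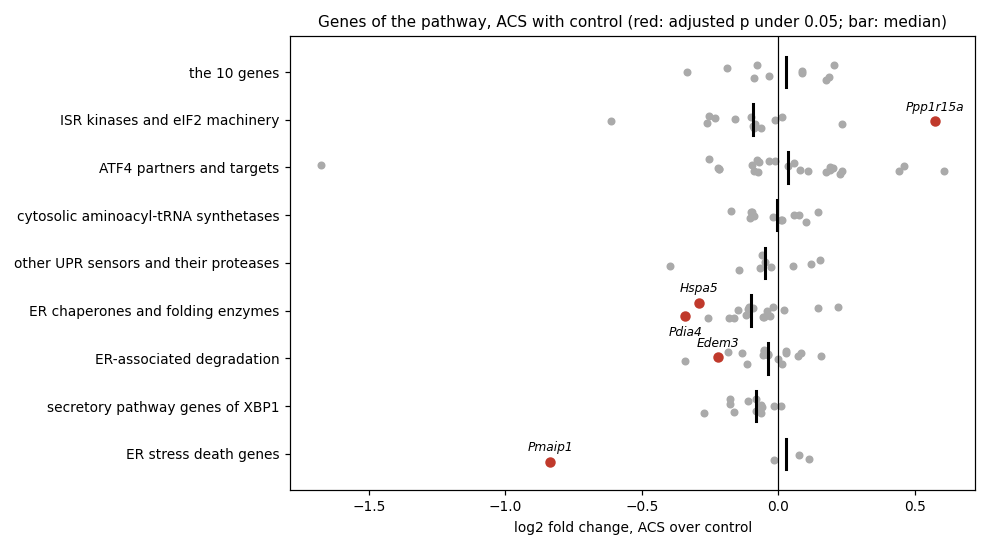
Log2 fold change between ACS and control (horizontal axis) of each tested gene of the 10 genes and of 8 pathway lists (rows), with red for an adjusted p under 0.05 and a black bar for the median of the row. Ppp1r15a is the red point on the right, and Hspa5, Pdia4, Edem3 and Pmaip1 are those on the left.

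Upstream of Atf4, 1 of 14 genes for the eIF2 kinases, eIF2 and its exchange factor and phosphatase rose between ACS and control and 0 fell. That gene was Ppp1r15a, which encodes GADD34, the subunit that directs a phosphatase to eIF2 and so ends the response. It had 39.7, 37.2 and 45.7 CPM in ACS libraries, 27.7, 28.5 and 28.9 CPM in DCS libraries and 24.3, 25.4 and 32.6 CPM in control libraries. Every ACS library was above the rest. The log2 fold change was 0.58 between ACS and control (standard error 0.11, adjusted p = 0.0261 from edgeR) and 0.53 between ACS and DCS (adjusted p = 0.0781). The first call was lost without ACS library 1, 2 or 3 (adjusted p = 0.0787, 0.0539 and 0.0746), without control library 1 or 2 (0.101 and 0.116) and with the 6 libraries of the comparison alone (0.0519). Outside stress, Ppp1r15a is also an early response gene of many cells. The other 13 genes of the list did not pass. Of the 14, 11 had a log2 fold change below 0, 7 had an unadjusted p under 0.05 (20.8% of all genes) and 7 had groups that did not overlap (27.1% of all genes). Among them Eif2ak2, the kinase activated by double-stranded RNA, was at -0.61 (adjusted p = 0.108 from edgeR). Eif2ak4, the kinase that senses lack of amino acids, was at 0.23 (adjusted p = 0.0617 from edgeR). Ppp1r15b, a relative of Ppp1r15a, went the other way at -0.26 (adjusted p = 0.0824 from edgeR). Eif2b5 was at -0.25 (adjusted p = 0.0593 from edgeR).

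Among 25 partners and targets of ATF4, none passed between ACS and control and 6 had an unadjusted p under 0.05, a count to be read against 20.8% of all genes, while 13 were above and 12 below 0, with a median log2 fold change of 0.036. The smallest p-values belonged to 2 amino acid transporters, whose differences had opposite signs. Slc7a11, the cystine transporter, averaged 63.1 ± 3.39 CPM in ACS neurons and 75.2 ± 3.33 CPM in control neurons (SD, n = 3 each), at -0.25 on the log2 scale (adjusted p = 0.0652 from edgeR). Slc7a5, a carrier of large neutral amino acids, averaged 260 ± 15.8 CPM in ACS neurons and 223 ± 5.24 CPM in control neurons (SD, n = 3 each), at 0.23 (adjusted p = 0.0669 from edgeR). DESeq2, which called 1652 genes in all against 678 with edgeR, gave both an adjusted p under 0.05 (0.00899 and 0.00511). Over the 18 alternatives their adjusted p reached 0.208. Of 12 cytosolic aminoacyl-tRNA synthetases, which charge tRNAs and include known ATF4 targets, none passed, and 6 were above and 6 below 0. An unadjusted p under 0.05 was found for 5 (20.8% of all genes), of which Cars alone was above 0. The groups did not overlap for 5 (27.1% of all genes). Tars1, whose promoter also held the C/EBP-ATF core, was at -0.17 on the log2 scale (adjusted p = 0.0685 from edgeR, 0.0161 with DESeq2). Of the 18 alternatives 2 called Tars1, and its adjusted p reached 0.226. Cars was at 0.15 (adjusted p = 0.146 from edgeR).

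Of 17 genes of ER-associated degradation, the removal of misfolded proteins from the ER, 1 fell and 0 rose between ACS and control. Edem3, which trims mannose from misfolded glycoproteins, had 47.7, 52.0 and 51.1 CPM in ACS libraries, against 58.3, 58.5 and 59.0 CPM in control libraries. The groups were apart (log2 fold change -0.22, adjusted p = 0.0462, edgeR). The call was lost whichever library was left out other than DCS library 3 (adjusted p from 0.0508 to 0.157) and in 5 further settings. Under DCS, Edem3 had 51.2, 54.6 and 55.0 CPM, also below all control libraries (log2 fold change -0.13, adjusted p = 0.692, edgeR). Of 12 secretory pathway genes that XBP1 is known to induce, none passed between ACS and control, and 11 were below 0. Sec61g, Ssr3 and Spcs3 had an unadjusted p under 0.05, or 3 of 12 against 20.8% of all genes. Sec61g, a subunit of the channel that passes proteins into the ER, was at -0.27 (adjusted p = 0.0818 from edgeR, 0.0167 with DESeq2). Of 18 alternatives 2 called Sec61g, and its adjusted p reached 0.257. Ssr1, a protein beside that channel, was at -0.082 between ACS and control (adjusted p = 0.479 from edgeR). Its smallest p was between DCS and control, where it was at -0.21 and the groups did not overlap (adjusted p = 0.692 from edgeR). Of 9 other sensors, their proteases and partners, none passed between ACS and control. Those with an unadjusted p under 0.05 were Traf2, an adaptor that binds IRE1, at -0.40 (adjusted p = 0.145 from edgeR) and Atf6b, a relative of Atf6, at 0.15 (adjusted p = 0.232), or 2 of 9 against 20.8% of all genes. Mbtps2, the protease that makes the second of the cuts in ATF6, was at 0.12 between ACS and control (adjusted p = 0.342 from edgeR). Its smallest p was between ACS and DCS, where it was at 0.21 and the groups did not overlap (adjusted p = 0.196 from edgeR).

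Of 4 tested genes that promote cell death under ER stress, Pmaip1 fell between ACS and control. Pmaip1, which encodes NOXA and is a p53 target too, had 2.93, 2.31 and 2.77 CPM in ACS libraries, against 4.45, 4.93 and 4.93 CPM in control libraries. The groups were clearly separate, although each library held only 113 to 337 estimated counts of this mRNA. The log2 fold change was -0.84 (standard error 0.18, adjusted p = 0.0337 from edgeR). The call was lost without ACS library 1, 2 or 3, DCS library 2 or control library 1 or 2 (adjusted p from 0.0517 to 0.127). Under DCS, Pmaip1 had 3.16, 3.17 and 4.27 CPM, also below all control libraries (log2 fold change -0.43, adjusted p = 0.692, edgeR). Between DCS and control, none of the genes in the 8 lists passed the adjusted test. From 0 to 2 genes per list had an unadjusted p under 0.05, against 7.09% of all genes. They included 2 of the 4 death genes, Bax at 0.17 and Pmaip1 at -0.43, and 2 of the 9 other sensors, proteases and partners. Between ACS and DCS, Pdia4 alone passed the adjusted test.

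**Figure D4:**
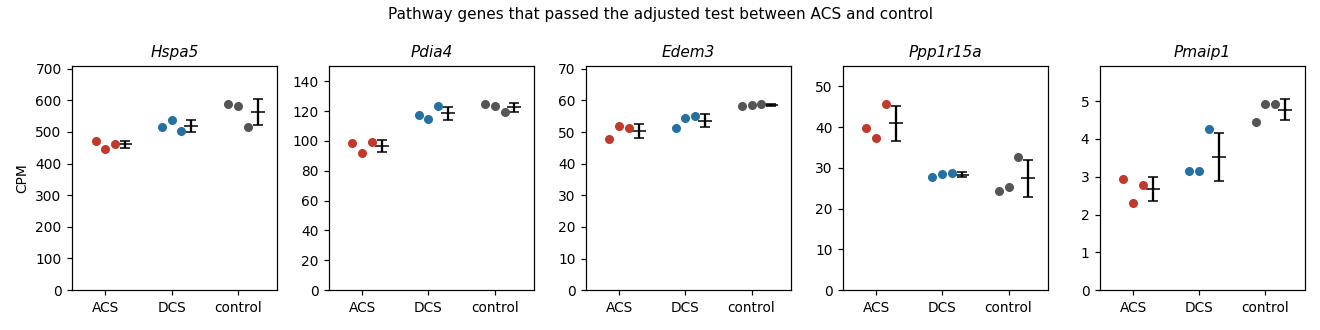
Level in CPM (vertical axes from 0) of the 5 pathway genes that passed the adjusted test between ACS and control, in the 3 ACS, 3 DCS and 3 control libraries (points) with the group mean ± SD (black bars). Hspa5, Pdia4, Edem3 and Pmaip1 are lower and Ppp1r15a is higher in the ACS libraries than in the control libraries.

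Within groups, the 10 genes did not deviate together as a set, although single pairs had a high correlation. The deviations of log2 CPM from the group mean were correlated over the 9 libraries for each of the 45 pairs, as a description without a test, since the points share library and depth. Pearson's r was above 0 for 21 pairs and had a median of -0.028. It was highest between Ddit3 and Trib3 (r = 0.83), followed by Trib3 and Atf6 (r = 0.78) and Ddit3 and Atf6 (r = 0.77). Trib3 rested on only 38 to 116 estimated counts per library. ACS library 2 was high and ACS library 3 low for both Ddit3 and Trib3, with Trib3 at 1.68 and 0.759 CPM and Ddit3 at 9.36 and 6.28 CPM. DCS library 3 and control library 2 were likewise high for both. Atf4 deviated with Herpud1 (r = 0.75) and against Xbp1 (r = -0.65). Atf4 and Trib3, by contrast, are not among the 7 pairs over 0.5. The share of pairs over 0.5 among other genes was not computed, so the 7 cannot be set against a background.

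**Figure D5:**
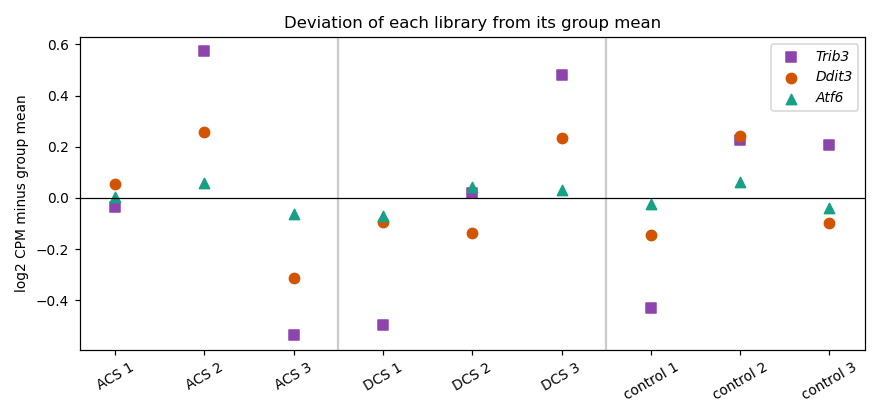
Log2 CPM of Trib3, Ddit3 and Atf6 minus the mean of the group (vertical axis) in each of the 9 libraries (horizontal axis, 3 per group). Trib3 and Ddit3 are high together in ACS library 2, DCS library 3 and control library 2 and low together in ACS library 3, while Atf6 varies within a narrow band.

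The estimated counts of a library summed to between 49039412 and 52938628 (ACS), 52370330 and 68133858 (DCS) and 53910745 and 68690760 (control). The libraries resembled each other, with correlations of log2 CPM from 0.961 to 0.973. Neuronal markers were high in all groups, with Tubb3 at a mean of 1123 FPKM. Their sum ran from 1631 to 1703 FPKM (ACS), 1579 to 1703 FPKM (DCS) and 1491 to 1641 FPKM (control). Glial markers were also present. The 8 astrocyte markers summed to 181 to 261 FPKM (ACS), 225 to 228 FPKM (DCS) and 231 to 240 FPKM (control), and 1 of them, Gfap, rose between ACS and control (log2 fold change 0.25, adjusted p = 0.0281 from edgeR). Of these 8, 4 were above and 4 below 0, those below including Sox9 at -0.33 (adjusted p = 0.118) and Slc1a3 at -0.30 (adjusted p = 0.514). The 8 microglial markers summed to 57.0 to 58.4 FPKM (ACS), 58.5 to 60.4 FPKM (DCS) and 55.5 to 58.3 FPKM (control), and 1 of them, C1qa, rose (log2 fold change 0.76, adjusted p = 0.0252 from edgeR). Of these 8, 5 were above and 3 below 0, with Ptprc at -0.57 and no overlap between the ACS and control libraries (adjusted p = 0.135). The 8 markers of the oligodendrocyte lineage summed to 183 to 200.3 FPKM (ACS), 187 to 214 FPKM (DCS) and 184 to 213 FPKM (control). The 7 endothelial and fibroblast markers stayed at 2.88 FPKM or less in sum, and no gene of either list passed between ACS and control. No marker was at 0 in all libraries. The neuronal marker Rbfox3 rose between ACS and control (log2 fold change 0.43, adjusted p = 0.0081) and between ACS and DCS (log2 fold change 0.35, adjusted p = 0.0486). Of the 10 neuronal markers, 6 were above and 4 below 0 between ACS and control, with Map2 at -0.34 (adjusted p = 0.27). The part of cell composition in the values of Hspa5, Pdia4, Ppp1r15a and Ern1 was not tested, and in such mixed cultures fewer cells of a type and less mRNA per cell cannot be told apart.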

How the data were processed

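Polyadenylated RNA of 9 libraries was sequenced in pairs. The authors trimmed the reads (fastp in the paper, cutadapt 1.9 in the labels), aligned them with HISAT2 (2.0.4) and quantified each library with StringTie (1.3.4d). The labels name UMI-tools without its role, and the table names no genome build. The deposited FPKM values are fragments scaled by exon length and library size, with zeros written as 0.0001. The deposited estimated counts are whole numbers, of which 34.1% between 1 and 15 are multiples of 4 where 20% would be if evenly spread, so a fragment may add about 4 to a count. Every value column was mapped to a library by its title.

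Estimated counts were used as deposited, scaled by TMM and filtered with filterByExpr (minimum count 10, minimum total 15) in edgeR 4.0.16 (R 4.3.3). One quasi-likelihood fit over the 9 libraries (6 residual and 3.83 prior degrees of freedom) gave the 3 comparisons, with Benjamini-Hochberg adjustment over all 16284 genes. A call is an adjusted p under 0.05, and intervals are 95% from the same fit. The script was tested on simulated data. CPM used TMM library sizes, and log2 CPM a prior count of 2. The totals limit the precision by counting error, which the intervals include.

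The 10 genes and the lists were chosen with earlier results of these data known. From each list the text names genes with a call (at most 4) or, without one, the 2 of smallest p over the comparisons, and Hspa5. Chaperones named with the ER stress element were named for that motif. Atf6b, Ssr3, Spcs3, Eif2ak2, Eif2ak4, Ppp1r15b, Eif2b5, Bax, C1qa, Ptprc, Sox9 and Rbfox3 were named after their values were seen. Cell type markers were counted as lists. Same-numbered libraries did not deviate together (r from -0.053 to 0.063), so the numbers were not treated as pairs. Alternatives were no filter, a mean FPKM of at least 1, median-of-ratios scaling, DESeq2 1.42.0, limma 3.58.1 on log2(FPKM + 1) and log2(FPKM + 0.1), 6 libraries, the replicate block, counts divided by 4 and each library left out. Promoters came from RefSeq.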

Additional observations from a re-analysis of the deposited data

How the results depend on the processing

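None of the 10 genes was called in any comparison under any alternative, with the exception that DESeq2 called 1 (Ern1) between ACS and DCS. With the replicate number as a block the counts of called genes were 0, 0 and 0, and every fit that left out 1 library gave 0. Correlations between same-numbered libraries were weak (r from -0.053 to 0.063). The match was still the best of the numbers in 5 of 9 such pairs, including all 3 between ACS and DCS. Because the correlations were weak, the block is given here only. It ended the calls of Edem3 (adjusted p = 0.0538) and Pmaip1 (0.0505) between ACS and control and of Pdia4 between ACS and DCS (0.0544). Edem3 was also not called without a filter (0.0527), by limma (0.0604 and 0.0597) or with 6 libraries (0.0754). Some signs turned. By limma with pseudocounts of 1 and 0.1, Xbp1 between ACS and DCS was at -0.015 and -0.015 and Eif2ak3 between DCS and control at 0.0038 and 0.0041. With 1 library left out, log2 fold changes between ACS and DCS ran from -0.21 to 0.067 for Ddit3, -0.032 to 0.057 for Xbp1, -0.23 to 0.39 for Trib3, -0.043 to 0.021 for Atf6 and -0.045 to 0.10 for Chac1. Between DCS and control they ran from -0.24 to 0.021 for Ddit3, -0.039 to 0.040 for Eif2ak3, -0.083 to 0.0065 for Asns and -0.033 to 0.19 for Ppp1r15a. Between ACS and control Xbp1 ran from -0.098 to 0.0043, Trib3 from -0.68 to -0.099 and Ddit3 from -0.32 to -0.045. Trib3 did not reach a mean FPKM of 1 and has no value under that filter. Over all genes, calls numbered 1652 (DESeq2) and 138 to 1431 (1 library left out) against 678 between ACS and control, 38 and 1 to 47 against 2 between DCS and control, and 650 and 27 to 184 against 103 between ACS and DCS. The last count was 64 and 65 by limma and 59 with the replicate block, and that between DCS and control was 1 with limma at a pseudocount of 1, the block, counts divided by 4 or 6 libraries. The cause of these changes was not tested. Trib3 rested on the fewest counts of the 10 genes.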
